A study of Drosophila melanogaster and Drosophila mauritiana and Drosophila melanogaster x Drosophila mauritiana with 7 samples.

Results

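The fourth chromosome of Drosophila supplied 909 of the 350729 distinct transposon small RNA sequences in the deposited table. They were chosen as the sequences that matched the genome at 1 place only and whose listed place lay on chromosome 4. In all, 6588 sequences were listed on that chromosome at any number of hits, and 45342 sequences over all chromosome arms had a single hit. The 909 sequences carried annotations to 31 repeats, were 23 to 30 nt long and started between bases 25335 and 1320095 of build dm6.

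The study measured small RNAs in fly testes around a cross between species, with 1 library per group. The hybrid library came from the F1 generation of a cross of P{}Hmr1 D. melanogaster with wt D. mauritiana flies. The Hmr1 library came from the P{}Hmr1 D. melanogaster parent strain, and the D. mauritiana library from a wt stock supplied by the CNRS in France. Mutations of Hmr, the Hybrid male rescue gene, are known for letting otherwise lethal hybrid males live. All adults were 0 to 5 days old, and RNA of 19 to 29 nt was selected on gels. The library titles give a slightly wider range, and the sequences listed run from 23 to 30 nt. With 1 library per group no difference has a replicate check, no p-value is given, and the 95% intervals cover counting error only. In whole testes, fewer cells of a type and less RNA per cell cannot be told apart, and the labelled tissue was not checked against markers because the table holds transposon sequences only.

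PIWI-interacting RNAs (piRNAs) guide PIWI proteins to transposon transcripts in the germ line and gonad, and many of them begin with U, written T here as in the table. In the ping-pong cycle a piRNA directs the cut of a complementary transcript, and the cut end becomes the start of a partner with A often at base 10. Chromosome 4 is a small, largely heterochromatic chromosome whose active genes lie among many repeats, among them the Helitron-related element DNAREP1 (DINE-1) and the P-related PROTOP elements. Drosophila chromosome ends are maintained by the retrotransposons HeT-A (HETA in the table), TART and TAHRE rather than by telomerase, and these are known piRNA targets in the germ line.

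The sequences with most reads in each library are shown as examples of the reads behind the values, and since they were picked per library their absence elsewhere is no result. They are printed 5′ to 3′ with T at base 1 and A at base 10 in capitals, with dm6 positions and the strand of the genomic match. The first group holds the 3 leading hybrid sequences and the leading hybrid sequence of the other DNAREP1 window described below.
HETA, chr4:1317925-1317948, plus strand: Tacattatcgacaaggatgggagg
S_DM, chr4:226942-226964, plus strand: attcaacttAtttcacagtgtgc
DNAREP1, chr4:541827-541854, minus strand: Ttccgtatgtacaagatctctgaaacca
DNAREP1, chr4:1011082-1011108, minus strand: Taattatattctccaatgtccaatatc
The HETA sequence had 3 hybrid reads and each of the other 3 had 2. All 4 had 0 reads in Hmr1 and 0 in D. mauritiana. Their counts are low, and 18 hybrid sequences tied at 2 reads, of which the lowest coordinates were taken.

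The leading Hmr1 sequences had more reads each, and none of the 3 was read in the hybrid or in D. mauritiana.
HETA, chr4:1304058-1304083, plus strand: TatagatatAgtcaaaaatagaatag
PROTOP, chr4:367771-367797, minus strand: atagcggagAgcgctacagcgaaaagc
TART, chr4:1281053-1281076, plus strand: gtccttccttgtatgattagcgcc
They had 18, 12 and 9 Hmr1 reads in that order. The leading D. mauritiana sequences came from other copies, and none of them was read in the hybrid or in Hmr1.
TART, chr4:1272436-1272460, minus strand: aattactagcatatcgattaccagc
R1_DM, chr4:1000736-1000761, minus strand: Tgcatatagggggcaagcgcacaata
TC1_DM, chr4:785140-785165, minus strand: gagttgcattaaaggttttaattgaa
They had 11, 8 and 4 D. mauritiana reads in that order, and 4 sequences tied at 4 reads.

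Chromosome 4 held 423 single-hit transposon reads in hybrids, 615 in Hmr1 and 143 in D. mauritiana. Total transposon reads were 175982 in hybrids, 441146 in Hmr1 and 133204 in D. mauritiana, so levels are given as reads per 1000000 transposon reads of the same library (RPM). The level was 2404 RPM in the hybrid (95% interval 2180 to 2644), 1394 in Hmr1 (1286 to 1509) and 1074 in D. mauritiana (905 to 1265). The hybrid level was 1.72 times that of Hmr1 (1.52 to 1.95) and 2.24 times that of D. mauritiana (1.85 to 2.73). These comparisons share the hybrid library. The Hmr1 level was 1.30 times that of D. mauritiana (1.08 to 1.57). Without scaling to library size the hybrid had fewer chromosome 4 reads than Hmr1, at a ratio of 0.688.

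Per transposon read, chromosome 4 and X were the only arms with a hybrid level above that of Hmr1. The ratio of hybrid to Hmr1 was 2.86 for X, while the ratios for 3L, 3R, 2R, 2L and Y ran from 0.844 for 3L down to 0.0856 for Y. Per single-hit read outside X the ratios were 3.37 for chromosome 4, 1.65 for 3L, 1.47 for 3R and 1.44 for 2R, while 2L and Y stayed below 1. Against D. mauritiana, too, the ratio per transposon read was above 1 for X, at 7.33, and for chromosome 4, while the other 5 arms lay between 0.200 and 0.523. X held 71.3% of single-hit reads in hybrids, 30.7% in Hmr1 and 13.1% in D. mauritiana. Chromosome 4 held 2.18% in hybrids, 1.56% in Hmr1 and 1.31% in D. mauritiana.

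Reads of chromosome 4 sat at few places. In the hybrid 71 windows of 10 kb had a read and 44 of them had just 1, while the 5 fullest windows held 73.3% of the reads. In Hmr1 58 windows had a read and the 5 fullest held 66.7%. In D. mauritiana 39 windows had a read and the 5 fullest held 57.3%. In the hybrid 384 of 403 sequences were read once, with at most 3 reads of a sequence. Hmr1 had 345 of 431 sequences read once and up to 18 reads of a sequence, and D. mauritiana had 75 of 94 read once and up to 11. These counts depend on sequencing depth, which differed between the libraries, and they were not compared at equal depth.

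**Figure D1:**
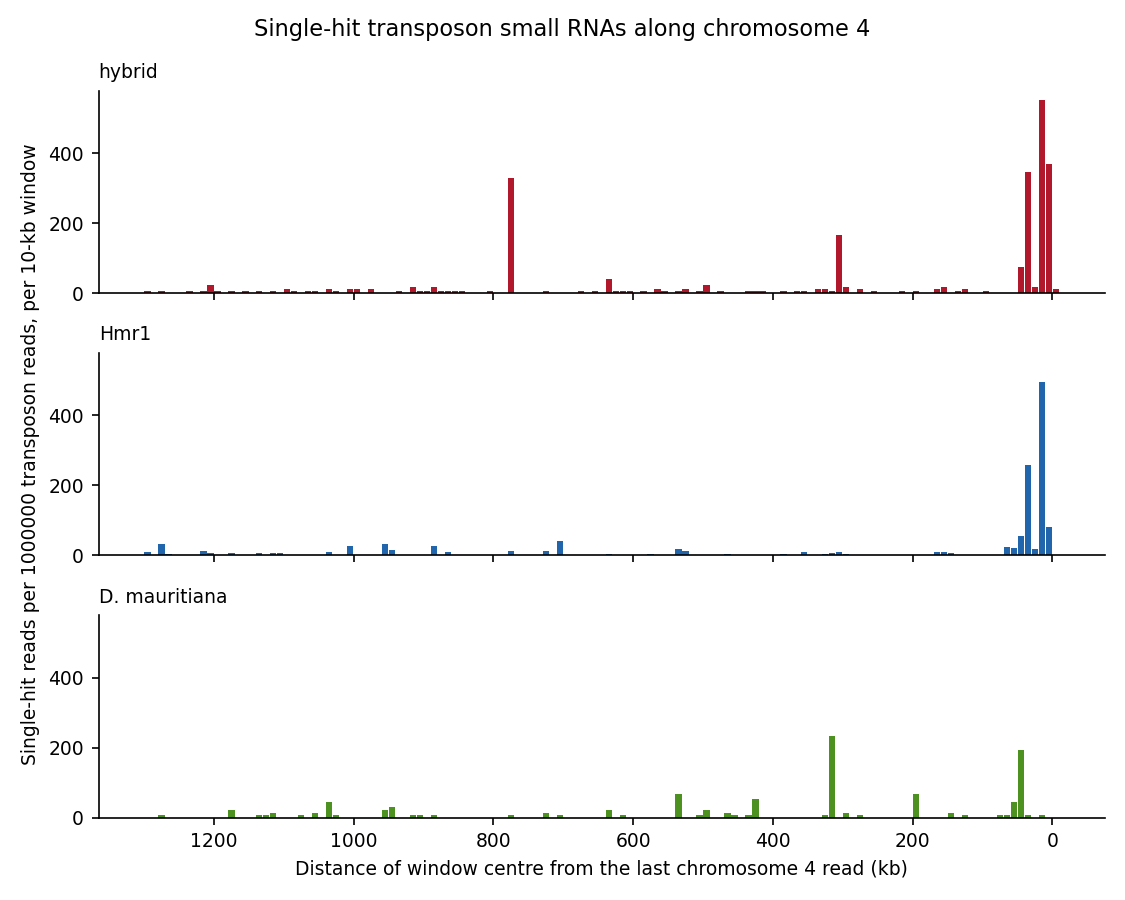
Single-hit chromosome 4 reads per 1000000 transposon reads in 10-kb windows, placed by the distance of the window centre from the last read of the chromosome, in the hybrid (top), Hmr1 (middle) and D. mauritiana (bottom). The hybrid has tall bars at the chromosome end and at a pair of inner windows, Hmr1 at the chromosome end, and D. mauritiana at an R1 window and a TART window.

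The repeat groups behind these levels differed between the libraries. The telomeric elements (HETA, TART, TART_B1 and TAHRE) gave 57.0% of the hybrid's chromosome 4 reads, 64.1% of Hmr1's and 18.2% of D. mauritiana's. DNAREP1 gave 34.0% in hybrids, 5.37% in Hmr1 and 18.9% in D. mauritiana. The P-type elements (PROTOP, PROTOP_A, PROTOP_B and P_DG) gave 2.84% in hybrids, 21.5% in Hmr1 and 13.3% in D. mauritiana. R1_DM, a retrotransposon of the ribosomal RNA genes, gave 0% in hybrids, 1.46% in Hmr1 and 21.7% in D. mauritiana. Of the 31 repeats, 22 had a read in hybrids, 22 in Hmr1 and 17 in D. mauritiana.

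**Figure D2:**
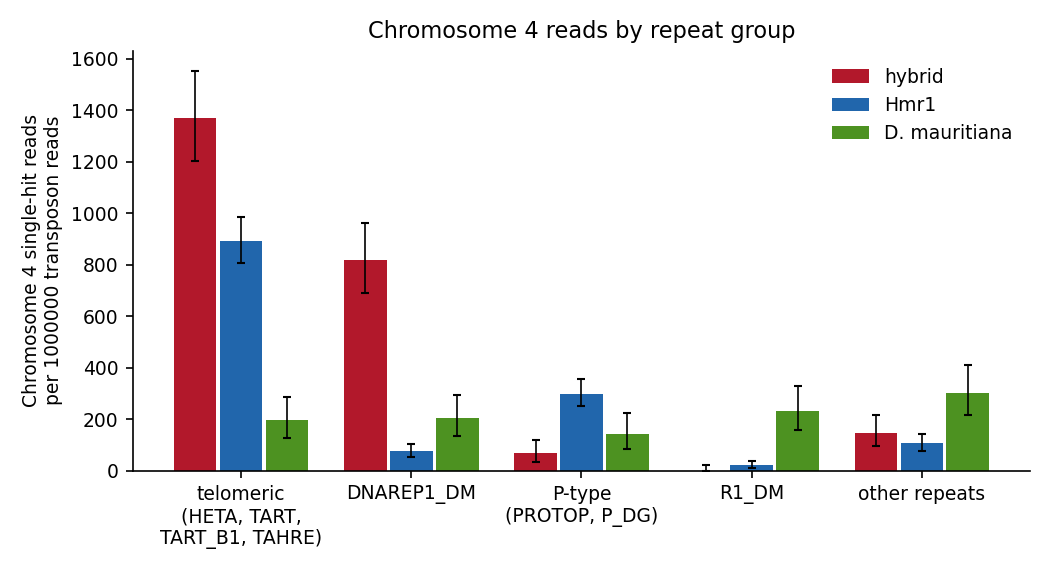
Chromosome 4 single-hit reads per 1000000 transposon reads by repeat group in the hybrid, Hmr1 and D. mauritiana libraries. Bars are 1 library each and error bars are exact Poisson 95% intervals. The hybrid bar is the tallest for the telomeric elements and DNAREP1, the Hmr1 bar for the P-type elements, and the D. mauritiana bar for R1_DM.

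DNAREP1 had the highest ratio of hybrid to Hmr1 among the repeats with enough reads. It had 144 reads in hybrids, 33 in Hmr1 and 27 in D. mauritiana, or 818, 74.8 and 203 RPM in that order of libraries. The hybrid level was 10.9 times that of Hmr1 (7.45 to 16.5) and 4.04 times that of D. mauritiana (2.66 to 6.34). DNAREP1 on the other arms together had a hybrid level 4.91 times that of Hmr1 (4.32 to 5.59). On X alone the ratio was 9.85 (7.74 to 12.7), and over the other arms without X it was 3.38 (2.88 to 3.96). The interval on chromosome 4 therefore overlapped that of X and lay above that of the remaining arms. It did not lie above the latter once a pair of dense windows, described below, was left out. When DNAREP1 reads were left out, the chromosome 4 level was 1.202 times as high in the hybrid as in Hmr1 (1.04 to 1.39). Without both DNAREP1 and the telomeric elements, 38 hybrid, 188 Hmr1 and 90 D. mauritiana reads remained. The hybrid level was then 0.507 times that of Hmr1 (0.348 to 0.721) and 0.320 times that of D. mauritiana (0.213 to 0.472).

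Most hybrid DNAREP1 reads came from a pair of windows, which held 60.4% of them (51.9 to 68.5%), against 33.3% in Hmr1 (18.0 to 51.8%) and 3.70% in D. mauritiana (0.0937 to 19.0%). The window of bases 540001 to 550000 had 58 reads in hybrids, 6 in Hmr1 and 1 in D. mauritiana. Its hybrid level was 24.2 times that of Hmr1 (10.5 to 68.7) and 43.9 times that of D. mauritiana (7.57 to 1764). All 58 hybrid and all 6 Hmr1 reads lay on the minus strand, and the single D. mauritiana read lay on the plus strand. The hybrid reads had 54 distinct 5′ ends between bases 541536 and 548991 and covered 847 bases, with at most 2 reads of a sequence. These reads fell inside Tdg (bases 538332 to 557854), which encodes a thymine DNA glycosylase, a DNA repair enzyme. Whether they lie in exons or introns was not analysed here, and the gene table used gives no strand for Tdg.

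The window of bases 1010001 to 1020000 had 29 DNAREP1 reads in hybrids, 5 in Hmr1 and 0 in D. mauritiana. Its hybrid level was 14.5 times that of Hmr1 (5.56 to 48.1). It was 7.32 times the D. mauritiana level that a floor of 3 reads per library would give. The exact lower limit of that ratio was 5.58. Again all hybrid and Hmr1 reads were on the minus strand. The 29 hybrid reads had 27 distinct 5′ ends between bases 1010389 and 1011514 and covered 389 bases. They lay inside PlexA (bases 1009895 to 1027101), which encodes a plexin, a receptor for semaphorin guidance cues. T was the first base of 36 of the 58 hybrid reads in the Tdg window and of 23 of the 29 in the PlexA window. Reads of 26 nt or longer made up 69.0% in the Tdg window (55.5 to 80.5%) and 55.2% in the PlexA window (35.7 to 73.6%).

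Outside these windows DNAREP1 reads were thinly spread and came from both strands. The hybrid had 57 such reads over 37 windows, Hmr1 had 22 over 20 windows, and D. mauritiana had 26 over 15 windows. The hybrid level was 6.49 times that of Hmr1 (3.91 to 11.2), so the difference was not limited to the pair of dense windows, which were picked for their ratios. This interval overlaps that of DNAREP1 on the other arms without X, at 3.38 (2.88 to 3.96). The plus strand held 56.1% of the chromosome 4 DNAREP1 reads outside the dense windows in hybrids, 54.5% in Hmr1 and 69.2% in D. mauritiana. The fullest such window in D. mauritiana, bases 1120001 to 1130000, had 9 DNAREP1 reads, all within CG11155, against 1 in the hybrid and 0 in Hmr1. With the floor of 3 reads for Hmr1, that window was 9.94-fold lower in Hmr1 than in D. mauritiana. The exact upper limit of the ratio was 0.153.

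The telomeric elements had 241 reads in hybrids, 394 in Hmr1 and 26 in D. mauritiana. The hybrid level was 1.53 times that of Hmr1 (1.30 to 1.804) and 7.02 times that of D. mauritiana (4.67 to 11.0). Unscaled, Hmr1 had more telomeric reads than the hybrid, and likewise for HETA and TART below. Chromosome 4 held 51.8% of telomeric single-hit reads in the hybrid (47.2 to 56.5%), 29.98% in Hmr1 (27.5 to 32.5%) and 19.8% in D. mauritiana (13.4 to 27.7%). Y held 9.25% of them in hybrids, 60.4% in Hmr1 and 45.8% in D. mauritiana. On the other arms the telomeric ratio of hybrid to Hmr1 was 0.610 (0.525 to 0.707), below that on chromosome 4. Leaving out Y turned it to 3.60 (2.85 to 4.56), above that on chromosome 4. Single-hit reads are a small part of these families, since telomeric reads at any number of hits numbered 5380 in hybrids, 9740 in Hmr1 and 1223 in D. mauritiana.

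HETA, which makes up much of the telomere and encodes a Gag-like protein, had 167 reads in hybrids, 262 in Hmr1 and 1 in D. mauritiana. Its hybrid level was 1.60 times that of Hmr1 (1.31 to 1.95). Against the single D. mauritiana read the ratio was 126 for the hybrid (22.4 to 5022) and 79.1 for Hmr1 (14.1 to 3136). Over all arms and at any number of hits HETA had 430 D. mauritiana reads. There the ratio to D. mauritiana was 5.23 for the hybrid (4.73 to 5.80) and 2.62 for Hmr1 (2.37 to 2.90). TART, which also encodes a reverse transcriptase, had 73 reads in hybrids, 128 in Hmr1 and 25 in D. mauritiana. Its hybrid level was 1.43 times that of Hmr1 (1.06 to 1.92) and 2.21 times that of D. mauritiana (1.39 to 3.63). TART_B1 had 1 read in hybrids, 2 in Hmr1 and 0 in D. mauritiana, and TAHRE had 0, 2 and 0 reads in that order. The ratio of hybrid to Hmr1 on the other arms together was 0.615 for HETA, 0.179 for TART, 0.0148 for TART_B1 and 11.9 for TAHRE. Without Y it was 1.40 for HETA (0.994 to 1.97) and 14.0 for TAHRE, while TART had 1 read in the hybrid and 4 in Hmr1 and TART_B1 had 1 and 0.

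In the windows with most HETA reads, those of the hybrid lay in the stretches read in Hmr1 and in further stretches beside them, as a description of where the reads lay. The window of bases 1300001 to 1310000 had 97 HETA reads in hybrids, 218 in Hmr1 and 1 in D. mauritiana, a ratio of 1.12 of hybrid to Hmr1 (0.869 to 1.42). The 5′ ends of the Hmr1 reads lay between bases 1302911 and 1304557, a span of 1646 nt. The hybrid had 34 reads in that span, 62 at higher coordinates up to base 1307779 and 1 at lower ones. The window of bases 1310001 to 1320000 had 65 HETA reads in hybrids, 36 in Hmr1 and 0 in D. mauritiana, a ratio of 4.53 of hybrid to Hmr1 (2.97 to 7.003). Here the Hmr1 5′ ends lay between bases 1316301 and 1316597, a span of 296 nt. The hybrid had 8 reads in that span, 56 at higher coordinates up to base 1319999 and 1 at lower ones.

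Over both of these HETA windows, 120 of 162 hybrid reads, or 74.1% (66.6 to 80.6%), started outside the spans of the Hmr1 reads. The spans were drawn from the Hmr1 reads after they were seen. In these windows Hmr1 thus has 0 reads outside them by construction, and no ratio is given. Inside the spans the hybrid had 42 reads and Hmr1 had 254, which the same construction makes all of its reads there, and no ratio is given for the inside either. The HETA hybrid reads outside the spans came from both strands, with 56.7% on the plus strand (47.3 to 65.7%), and 69.2% of them began with T (60.1 to 77.3%). Neither of these HETA windows overlaps a gene of the gene table used. HETA reads also lay in a further pair of windows, left out of these values. Bases 1290001 to 1300000 had 8 Hmr1 reads, all on the plus strand, and 3 hybrid reads, all on the minus strand. Bases 1320001 to 1330000 had 2 hybrid reads and 0 in Hmr1.

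**Figure D3:**
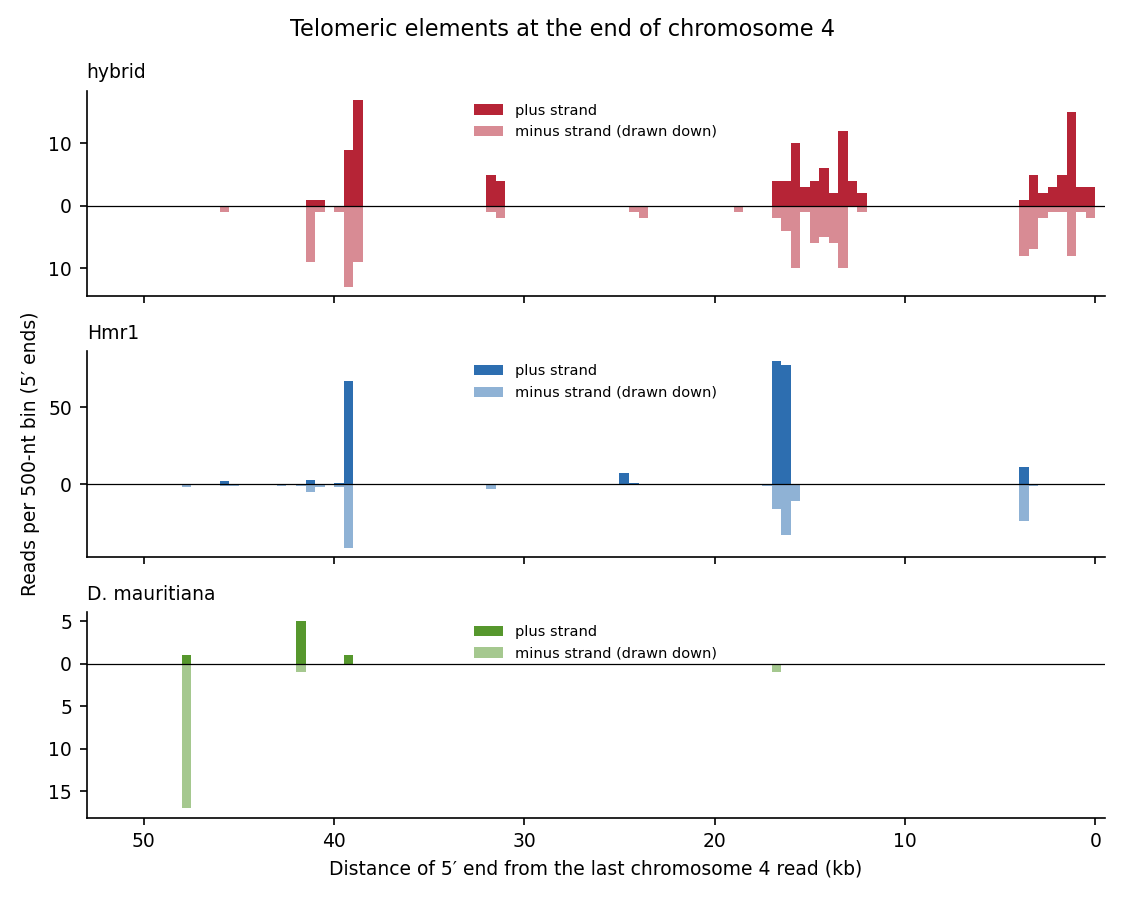
Telomeric element reads by 5′ end in 500-nt bins against the distance from the last chromosome 4 read, for the hybrid (top), Hmr1 (middle) and D. mauritiana (bottom), with plus-strand reads drawn up and minus-strand reads drawn down. The vertical scales differ between the panels. Hmr1 reads form narrow peaks, while hybrid reads continue towards the chromosome end beyond them.

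TART reads sat mostly in the window of bases 1280001 to 1290000, with 61 in hybrids, 114 in Hmr1 and 1 in D. mauritiana. The ratio of hybrid to Hmr1 was 1.34 (0.966 to 1.85), an interval that includes 1. The neighbouring window of bases 1270001 to 1280000 had 13 reads in hybrids, 24 in Hmr1 and 26 in D. mauritiana, where TART was the leading repeat in each library. Its hybrid level was 0.378 times that of D. mauritiana (0.179 to 0.764). The D. mauritiana reads of this window had 6 distinct 5′ ends against 11 in the hybrid and 23 in Hmr1, and the TART sequence printed above gave 11 of the 26. T was the first base of 64.4% of TART reads in the hybrid (52.3 to 75.3%), 55.5% in Hmr1 (46.4 to 64.3%) and 28% in D. mauritiana (12.1 to 49.4%).

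The P-type elements went the other way. They had 12 reads in hybrids, 132 in Hmr1 and 19 in D. mauritiana, and the hybrid level was 0.228 times that of Hmr1 (0.115 to 0.412). The ratio on the other arms was 0.218 (0.195 to 0.242), an interval that lies within that of chromosome 4. PROTOP_A had 2 reads in hybrids, 56 in Hmr1 and 3 in D. mauritiana, a ratio of 0.0895 of hybrid to Hmr1 (0.0106 to 0.339). PROTOP had 1 read in hybrids, 36 in Hmr1 and 11 in D. mauritiana, a ratio of 0.0696 (0.00172 to 0.414). PROTOP_B had 8 reads in hybrids, 40 in Hmr1 and 5 in D. mauritiana, at 0.501 (0.203 to 1.09), an interval that includes 1.

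In Hmr1 the P-type reads were spread over 24 windows, with at most 18 in a window. The fullest, bases 610001 to 620000, had 0 hybrid reads, 18 Hmr1 reads and 1 D. mauritiana read, all PROTOP_A and all within Eph, which encodes the Eph receptor tyrosine kinase. With the floor of 3 reads for the hybrid, its level was 2.39-fold lower in the hybrid than in Hmr1. The exact upper limit of the ratio was 0.570. In the window of bases 360001 to 370000 there were 0, 15 and 3 PROTOP reads in the hybrid, Hmr1 and D. mauritiana, all on the minus strand within Hcf, the gene of the chromatin-associated host cell factor. The PROTOP sequence printed above made up 12 of those 15 Hmr1 reads.

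R1_DM had 0 reads in hybrids, 9 in Hmr1 and 31 in D. mauritiana. Its level was 13.7-fold lower in the hybrid than in D. mauritiana when the hybrid was set to the floor of 3 reads. The exact upper limit of this ratio of hybrid to D. mauritiana was 0.0956. The Hmr1 level of R1_DM was 0.0877 times that of D. mauritiana (0.0367 to 0.189). The window of bases 1000001 to 1010000 had 1 read in hybrids, 3 in Hmr1 and 31 in D. mauritiana, all 31 within toy, which encodes a Pax6 transcription factor of eye development. Of these 31, 30 were R1_DM reads and 27 of the 30 lay on the minus strand. The 31 D. mauritiana reads had 10 distinct 5′ ends, with quartiles at the adjacent bases 1000760 and 1000761. The R1_DM sequence printed above gave 8 of them. The hybrid level of this window was 0.0244 times that of D. mauritiana (0.000599 to 0.147). On the other arms R1_DM had a hybrid level 0.940 times that of D. mauritiana (0.794 to 1.11) and 0.174 times that of Hmr1 (0.154 to 0.195).

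Smaller groups had few reads each. The Tc1-mariner elements had 7 reads in hybrids, 4 in Hmr1 and 19 in D. mauritiana, of which TC1_DM gave 1, 2 and 12 and BARI1 gave 1, 0 and 7 in the same order. All 9 D. mauritiana reads of the window of bases 780001 to 790000 were TC1_DM reads with the same 5′ end, base 785165, within MED26, the gene of a Mediator subunit. The BARI1 reads of D. mauritiana lay on the plus strand. The LINEs other than the telomeric elements and R1_DM had 6 reads in hybrids, 26 in Hmr1 and 12 in D. mauritiana, with DMCR1A at 3, 15 and 7 in the same order. The Gypsy-type LTR elements had 7 reads in hybrids, 5 in Hmr1 and 2 in D. mauritiana. BURDOCK_I-int gave 4 of the hybrid reads and none in the parents.

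Counted by window, 7 windows of chromosome 4 had at least 20 reads in some library. Against Hmr1, 3 of 6 windows were at least 2-fold higher in the hybrid, where the share over the windows of all arms was 20.1%. Of the 6, 0 were at least 2-fold lower, where that share was 57.7%. The median log2 ratio was 1.33 over the 6 windows and -1.26 over the 279 windows of all arms. Against D. mauritiana, 5 of 7 windows were higher in the hybrid (34.9% over all arms) and 2 were lower (58.7%). Between the parents, 3 of 5 windows were at least 2-fold higher in Hmr1 than in D. mauritiana (48.9% over all arms) and 2 were lower (32.2%). The counts are small and shaped by the minimum of 20 reads. The Tdg and PlexA windows passed it through the hybrid alone, while windows such as the Eph window, with 0 hybrid and 18 Hmr1 reads, missed it. Of the hybrid and D. mauritiana, each window called reached the minimum only in the library where it was higher, so the minimum shaped these directions. Between the parents the same held for each window but that of bases 1270001 to 1280000, with 24 Hmr1 and 26 D. mauritiana reads. Neighbouring windows can also hold copies of the same element.

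Counted by repeat, chromosome 4 reads of 6 repeats reached 20 in the hybrid or Hmr1. DNAREP1 was at least 2-fold higher in the hybrid (30.7% of repeats over all arms), and PROTOP and PROTOP_A were at least 2-fold lower (40.9%). Against D. mauritiana 3 of 4 repeats were higher in the hybrid (34.5% over all arms), namely HETA, DNAREP1 and TART, and R1_DM was lower (35.5%). Between the parents 3 of 7 repeats were higher in Hmr1 than in D. mauritiana (39.4% over all arms), namely HETA, PROTOP_A and PROTOP_B, and DNAREP1 and R1_DM were lower (25%). PROTOP and PROTOP_A passed the minimum through Hmr1 alone. Against D. mauritiana, HETA passed it through the hybrid alone and R1_DM through D. mauritiana alone. Between the parents, HETA, PROTOP_A and PROTOP_B passed through Hmr1 alone and R1_DM through D. mauritiana alone. The minimum thus shaped the directions of those calls. With 4 to 7 repeats per comparison, these counts do not set chromosome 4 apart from the other arms.

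The plus strand of the chromosome held 41.6% of reads in the hybrid (36.9 to 46.5%), 54.6% in Hmr1 (50.6 to 58.6%) and 41.3% in D. mauritiana (33.1 to 49.8%). The hybrid and Hmr1 intervals do not overlap. They overlap with each sequence counted once, at 40.7% in the hybrid (35.9 to 45.7%) and 47.1% in Hmr1 (42.3 to 51.9%). They also overlap without DNAREP1, where the hybrid share was 51.6% and the Hmr1 share 55.7%, and without the telomeric reads. On the other arms the plus strand held 85.0% in hybrids, 64.7% in Hmr1 and 55.0% in D. mauritiana, and on the other arms without X 53.9%, 56.1% and 52.3% in the same order. The strand is that of the genomic match, and whether a read is sense or antisense to its element was not analysed here.

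T was the first base of 67.6% of chromosome 4 reads in the hybrid (62.9 to 72.1%), 62.9% in Hmr1 (59.0 to 66.8%) and 48.3% in D. mauritiana (39.8 to 56.8%). The hybrid and Hmr1 intervals overlap, and the D. mauritiana interval lies below both. With each sequence counted once the D. mauritiana share was 52.1% (41.6 to 62.5%) and that of Hmr1 60.8% (56.0 to 65.4%), and these overlap, as they also do without the leading sequence of each library and at 24 to 28 nt. On the other arms the shares were 72.9% in hybrids, 65.5% in Hmr1 and 57.6% in D. mauritiana. G was the first base of 3.31% of chromosome 4 reads in the hybrid (1.82 to 5.49%), 9.92% in Hmr1 (7.67 to 12.6%) and 15.4% in D. mauritiana (9.90 to 22.4%), and of 7.10%, 12.8% and 11.2% on the other arms in the same order.

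A stood at base 10 in 32.4% of chromosome 4 reads in the hybrid (27.9 to 37.1%), 45.9% in Hmr1 (41.9 to 49.9%) and 17.5% in D. mauritiana (11.6 to 24.7%). The 3 intervals are separate. With each sequence counted once the shares were 32.5% in the hybrid (27.95 to 37.3%), 39.4% in Hmr1 (34.8 to 44.2%) and 24.5% in D. mauritiana (16.2 to 34.4%), and the hybrid interval overlaps both others. On the other arms the shares were 28.4% in hybrids, 29.9% in Hmr1 and 27.4% in D. mauritiana. The high Hmr1 share came with plus-strand HETA reads, of which 21.6% had A at base 10 in the hybrid (13.5 to 31.6%) and 68.2% in Hmr1 (60.8 to 75.0%). Counted once per sequence they were 22.2% in the hybrid (13.7 to 32.8%) and 51.8% in Hmr1 (40.6 to 62.9%), still apart. On the minus strand of HETA the hybrid had 43.0% (31.9 to 54.7%) and Hmr1 31.4% (21.8 to 42.3%), with overlapping intervals. Of the D. mauritiana telomeric reads, 0 of 26 had A at base 10.

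Hybrid reads of chromosome 4 were longer than those of Hmr1. Their mean length was 25.5 nt in the hybrid (SD over reads 1.46), 25.1 nt in Hmr1 (1.35) and 25.3 nt in D. mauritiana (1.33). The commonest length was 26 nt in the hybrid and 25 nt in both parents. Reads of 26 nt or longer made up 52.0% in the hybrid (47.1 to 56.9%), 38.0% in Hmr1 (34.2 to 42.0%) and 42.7% in D. mauritiana (34.4 to 51.2%). The other arms had 53.9%, 34.3% and 36.0% in the same order. DNAREP1 reads of the hybrid were long, with 62.5% at 26 nt or more (54.1 to 70.4%), while its TART reads had 37.0% (25.97 to 49.1%), close to the 36.7% of Hmr1 TART reads (28.4 to 45.7%).

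**Figure D4:**
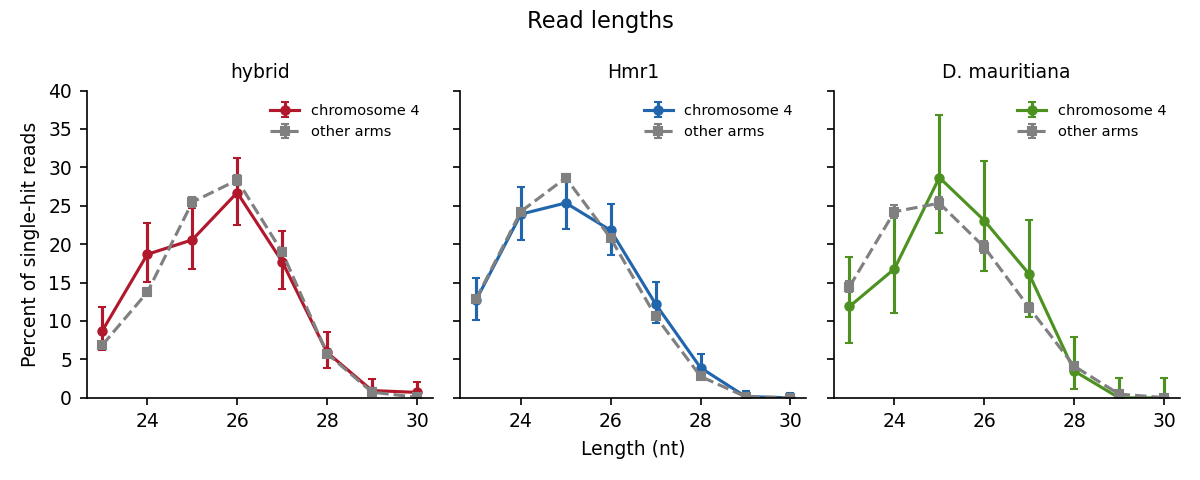
Percent of single-hit reads at each length from 23 to 30 nt on chromosome 4 (circles) and on the other arms (squares) in the hybrid (left), Hmr1 (middle) and D. mauritiana (right), with exact 95% binomial intervals. The hybrid curve peaks at 26 nt and both parent curves at 25 nt.

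Opposite-strand reads whose 5′ ends overlap by 10 nt, the spacing of ping-pong partners, were counted as products of the reads at both ends, over overlaps of 1 to 20 nt. The hybrid had 25 such read pairs among 52 overlapping pairs on chromosome 4, or 48.1%, and no other overlap had more than 6. They came from 5 position pairs, of which 1 gave 12 of the 25. With each position pair counted once the share was 5 of 28, or 17.9%. The hybrid had, on its other arms, 31 of 323 read pairs at 10 nt, or 9.60%, and 8.57% by position. Hmr1 had 64 of 482 read pairs at 10 nt on chromosome 4, or 13.3%, from 8 position pairs, of which 1 gave 27. By position its share was 6.56%, and 10 nt was not the commonest overlap, with 8 position pairs against 11 at 13 nt. On its other arms 27.1% of read pairs were at 10 nt and 7.93% by position. D. mauritiana had 0 overlapping pairs on chromosome 4, and 57.2% of its read pairs on the other arms were at 10 nt.

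All 10-nt pairs of the hybrid and of Hmr1 on chromosome 4 lay in HETA or TART, and none in DNAREP1. Hybrid reads outside the telomeric elements had 0 overlapping pairs at any overlap of 1 to 20 nt. In the dense DNAREP1 windows they all lay on the minus strand, so pairing could not be assessed there. The hybrid pairs were 3 HETA and 2 TART position pairs. T was the first base on at least 1 side at all 5 of them and on both sides at 1. In Hmr1 T was on at least 1 side at 6 of 8 position pairs and on both at 3. Since 67.6% of hybrid chromosome 4 reads begin with T, a T on some side is common in any pair. A TART pair and a HETA pair of the hybrid are printed to show the complementary first 10 bases. The plus-strand read of the TART pair starts at base 1281296 and the minus-strand read at base 1281305. In the HETA pair the starts are bases 1306671 and 1306680, which lie in the stretch beyond the Hmr1 reads.
TART, plus strand: Tcctggtcctttacttcgctcct
TART, minus strand: aggaccaggAacctgaaaaaggtac
HETA, plus strand: Ttggtgtttgtcttctctttcctca
HETA, minus strand: caaacaccaAtaatgctcaaaaagac
In both pairs the plus-strand read begins with T and its partner has A at base 10. That A follows from the T by construction, since a 10-nt overlap pairs base 1 of a read with base 10 of its partner. The complementary first 10 bases likewise follow from the selection.

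**Figure D5:**
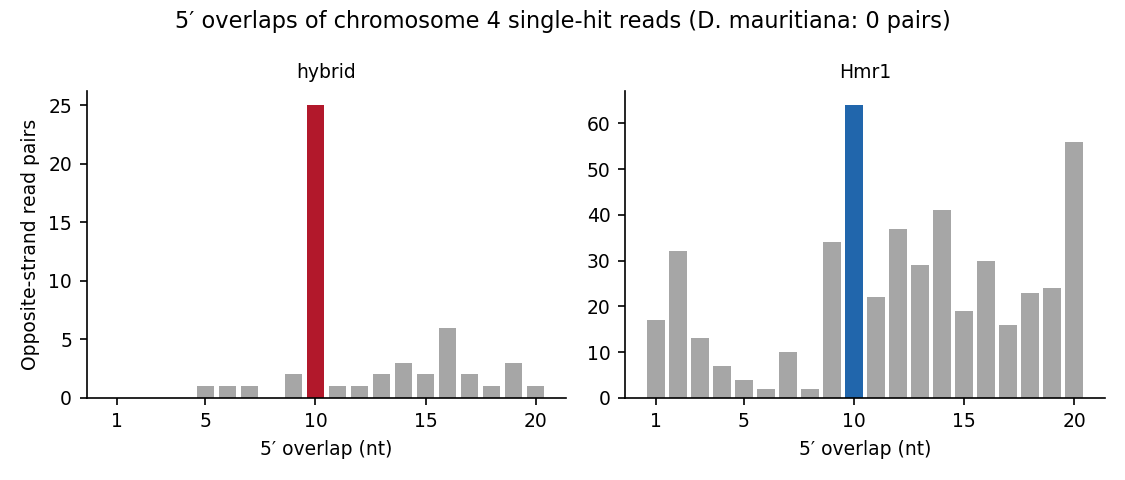
Number of opposite-strand read pairs on chromosome 4 at each 5′ overlap of 1 to 20 nt in the hybrid (left) and Hmr1 (right), with the 10-nt bar coloured and D. mauritiana at 0 pairs. The 10-nt bar is the tallest in both, at 25 pairs in the hybrid and 64 in Hmr1, where an overlap of 20 nt follows with 56. Counted by position, the Hmr1 bar at 10 nt falls to 8, below the 11 at 13 nt.

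The libraries shared few chromosome 4 sequences. The hybrid and Hmr1 had 18 in common, which is 4.47% of the hybrid's 403 sequences (2.67 to 6.97%) and 4.18% of Hmr1's 431. Elsewhere in the genome 12.5% of hybrid sequences were also in Hmr1 (12.0 to 13.1%). Seen from Hmr1 the share was 4.18% on chromosome 4 (2.49 to 6.52%) and 6.63% elsewhere (6.33 to 6.93%), with overlapping intervals. Of those 18, 16 were telomeric. X held 71.3% of the hybrid's single-hit reads, and sharing elsewhere was not computed without X. On chromosome 4, 384 of the hybrid's 403 sequences were read once. Sharing depends on reads per sequence and on depth, and it was not compared at equal depth. The hybrid shared 0 of its 403 sequences with D. mauritiana, which allows a share of up to 0.744% by the floor of 3 counts (exact upper limit 0.911%), against 1.73% on the other arms (1.52 to 1.96%). Seen from D. mauritiana it was 0 of 94 sequences, with an exact upper limit of 3.85%. The other arms had 3.70% on that side (3.26 to 4.19%), so the intervals overlap there. Hmr1 and D. mauritiana shared 1 sequence. Several sequences with the same 5′ end were found at 6.79% of the hybrid's 5′ ends on chromosome 4, at 14.6% of Hmr1's and at 16.0% of D. mauritiana's, against 15.9%, 14.3% and 15.5% on the other arms in the same order.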

How the data were processed

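Read counts per distinct small RNA sequence were used as deposited by the authors, unscaled, in 3 testis libraries. Per the submitters' processing notes, the tools were cutadapt 1.8.1, Bowtie 1.2.2 and Bowtie 0.12.7 with build dm6. How many mismatches were allowed, and where the repeat annotation came from, is not given in the sources used here. D. mauritiana reads, and hybrid reads from D. mauritiana copies, were thus placed on a D. melanogaster build, where reads of diverged copies can be missing. This bears on every ratio with either library, and its size was not tested. Single-hit reads numbered 19387 in hybrids, 39430 in Hmr1 and 10908 in D. mauritiana. RNA-seq, y w and other repeat tables were not used here.

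Ratios carry exact conditional binomial intervals, shares Clopper-Pearson intervals and counts exact Poisson intervals (95%, Python 3.11.15, scipy 1.17.1), checked on simulated data. PCR duplicates could not be told from molecules. Windows of 10 kb took the 5′ end of a read. Calls needed 20 reads in either library and a log2 ratio of at least 1 or at most -1 with a pseudocount of 1 read. Named were the 5 windows and 6 repeats with most reads per library, the 3 highest and 3 lowest ratios, and the 3 leading sequences per library. Windows outside that rule (Hcf) were chosen after their values were seen, and the members and lists were chosen with earlier results of these data known. Gene names and positions came from a RefSeq gene table of the same build.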

Additional observations from a re-analysis of the deposited data

How the results depend on the processing

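Without scaling, chromosome 4 ratios were 0.688 for hybrid against Hmr1 (reversed), 2.96 for hybrid against D. mauritiana and 4.30 for Hmr1 against D. mauritiana. Per single-hit read the hybrid ratios were 1.40 and 1.66, and per single-hit read outside X 3.37 and 5.04. Without DNAREP1 they were 1.202 and 1.82, and without telomeric reads 2.06 and 1.18, where Hmr1 against D. mauritiana reversed to 0.570. The cause of these reversals was not tested beyond the reads left out or rescaled. Windows at least 2-fold higher in the hybrid than Hmr1 numbered 50 with a minimum of 1 read, and lower ones 6 (1 with 5-kb or 20-kb windows). At a minimum of 1 read the scaling to library size and the pseudocount fix many calls. By the scaling, a window with 1 read in each library already counts as higher in the hybrid, whose library is smaller than that of Hmr1. With the pseudocount, a window with 0 hybrid reads and 1 Hmr1 read does not count as lower. Against D. mauritiana the windows numbered 17 higher and 18 lower with a minimum of 1 read, 3 and 1 with 20-kb windows, and 0 lower with a minimum of 50 reads. Plus-strand shares were 51.6% without DNAREP1 and 28.02% without telomeric reads in the hybrid. They were 39.4% without telomeric reads in Hmr1, and 47.1% in Hmr1 and 51.1% in D. mauritiana with each sequence counted once. The Hmr1 share of first base T was 58.4% without telomeric reads. Mean lengths at 24 to 28 nt were 25.7 nt in the hybrid, 25.4 nt in Hmr1 and 25.6 nt in D. mauritiana. The hybrid mean was 25.3 nt without DNAREP1 and 25.7 nt without telomeric reads, where Hmr1 had 25.3 nt. Of 93 such values 60 stayed within the interval or range of the main value. The share of hybrid overlaps at 10 nt fell to 32.5% without the position pair with most pairs, and that of Hmr1 to 8.13%. The settings that leave out DNAREP1, telomeric reads, X or that position pair were chosen after seeing the data. No paired analysis was possible because each group has 1 library. With 423 hybrid reads, a repeat at 0 may still lie at 17.0 reads per 1000000 transposon reads, the floor of 3 reads. The exact upper limit for 0 reads is higher, at 3.69 reads. The D. mauritiana library, with 143 reads, limits every comparison with it.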
